A study of Mus musculus with 24 samples.

Results

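Interferon-stimulated genes are switched on when interferons bind their receptors, and a list of 39 of them was followed in Th1 and Th2 cells: antiviral effectors, oligoadenylate synthetases, RNA sensors with the ISG15 conjugation system, guanylate-binding proteins and immunity-related GTPases, the Parp9, Parp14 and Dtx3l genes, and a few others. Members were chosen by name, and each gene was read from its brightest probe. A named probe was found for 37 of the 39 genes, among 20028 genes with a named probe, and Mx1 and Mx2 were not analysed here. On reactivation 21 of 37, or 56.8%, fell in Th1 cells, where 29.3% of all genes tested fell. In Th2 cells 24 of 37, or 64.9%, rose, where 26.6% of all genes rose. Of the 37, 11 were called lower in Th1 and higher in Th2 cells, 8 of them GTPases, where 0.418% of all genes were. In the same direction in both 7 were called, where 43.3% of all genes were.

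Type I interferon acts through the receptor chains Ifnar1 and Ifnar2 on a transcription factor complex that includes Irf9 and binds the interferon-stimulated response element (ISRE). Interferon gamma, the hallmark cytokine of Th1 cells, acts through Ifngr1 and Ifngr2, and promoters that respond to it often hold a gamma-activated site (GAS). Products of the target genes degrade or sense viral RNA, block viral entry and release, or, as the GTPases do, attack the vacuoles in which intracellular microbes live.

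The study asked how Th1 and Th2 gene expression depends on P-TEFb, the kinase that releases paused RNA polymerase II. It used Flavopiridol, a P-TEFb inhibitor, and JQ1, which displaces BET proteins from chromatin. Th1 and Th2 cells were differentiated in vitro from female C57BL/6 mice, with no genetic alteration named, and were left unstimulated or were reactivated. Total RNA was labelled with Cy3 and hybridised to 24 Agilent arrays beside Cy5-labelled RNA of naive CD4+CD62L+CD25-CD44lo T cells from lymph nodes and spleens. For Th1 cells, each state was sampled with DMSO, the solvent control, for 6 hr and 24 hr, with JQ1 at 50 nM for 6 hr and at 500 nM for 6 hr and 24 hr, and with Flavopiridol at 1 µM and 10 µM for 6 hr. For Th2 cells, each state was sampled with DMSO and with the same doses of both drugs for 6 hr. The treatment time of the Th2 DMSO arrays is unclear, as their labels give both 24 hr and 6 hr. Each condition had 1 array and no dye swap, and the design names 1 biological replicate.

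A level is given here as log2 of Cy3 over Cy5, that is, relative to naive cells. A change is a difference of such levels, and it was called where limma gave an adjusted p below 0.05 over all genes tested. As no condition was repeated, pairs of arrays from different cells, doses or times stood in for replicates. Errors are limma's standard errors, moderated over all genes. Both cell types shared the same error estimate for reactivation, as did both doses of each drug. In bulk RNA, fewer cells of a type and less RNA per cell cannot be told apart. The 24 arrays lay on 3 slides of 8. Each unstimulated and reactivated pair shared a slide, but all Flavopiridol arrays and all drug-treated Th2 arrays lay on other slides than their DMSO controls. Probes well above background in Cy3 made up 35.4% to 41.5% of the 8 Flavopiridol arrays and 43.8% to 52% of the 16 others. All 4 T cell markers were detected. Mean levels of the Th1 marker list ran from 2.54 to 4.34 on Th1 arrays without Flavopiridol and from -1.12 to 2.20 on Th2 arrays. The 6 Th2 markers had means of -0.06 to 2.78 on Th1 arrays and 0.67 to 4.13 on Th2 arrays. All 4 B cell markers were detected, with means of 0.12 to 1.16 on Th1 arrays and 1.57 to 2.51 on Th2 arrays without Flavopiridol, and -0.17 to -0.06 and 0.97 to 1.45 with it, and their part in the results was not tested.

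Levels relative to naive cells are given as a description, with no test. The median level of the 37 genes ran from -2.03 to 0 over the 24 arrays, beside -0.13 to 0.08 for all genes. It was near 0 in unstimulated Th1 cells with DMSO for 24 hr (0) and in reactivated Th2 cells with DMSO (-0.01). Of the 37 genes, 13 were below the naive level on every array, and Ifitm3, which blocks viral fusion with endosomes, was the only gene above it on every array. The oligoadenylate synthetases, which make the messenger that activates RNase L, and their relatives were spread widely: Oas2 levels ran from -4.61 to -2.84 and Oasl1 levels from -4.18 to -2.53, whereas Oas3 levels ran from -0.80 to 1.45. Rtp4, a chaperone of receptor trafficking, ran lower still, from -6.24 to -1.49. At the other end, Gbp2 stood at 3.42 and Gbp3 at 3.94 in unstimulated Th1 cells with DMSO for 6 hr. In the same state of Th2 cells with DMSO they stood at -0.20 and 0.30. In Cy3, 27 genes were well above background on all 24 arrays, while Ifi44 was so on 4 arrays, Rsad2 on 10, Cmpk2 on 13, Tgtp1 on 14 and Rtp4 on 15. The median of the 9 GTPases lay above the naive level in unstimulated Th1 cells with DMSO, at 0.66 for 6 hr and 1.36 for 24 hr, and below it after reactivation, at -0.82 and -0.62. The map of levels shows every gene and array.

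**Figure D1:**
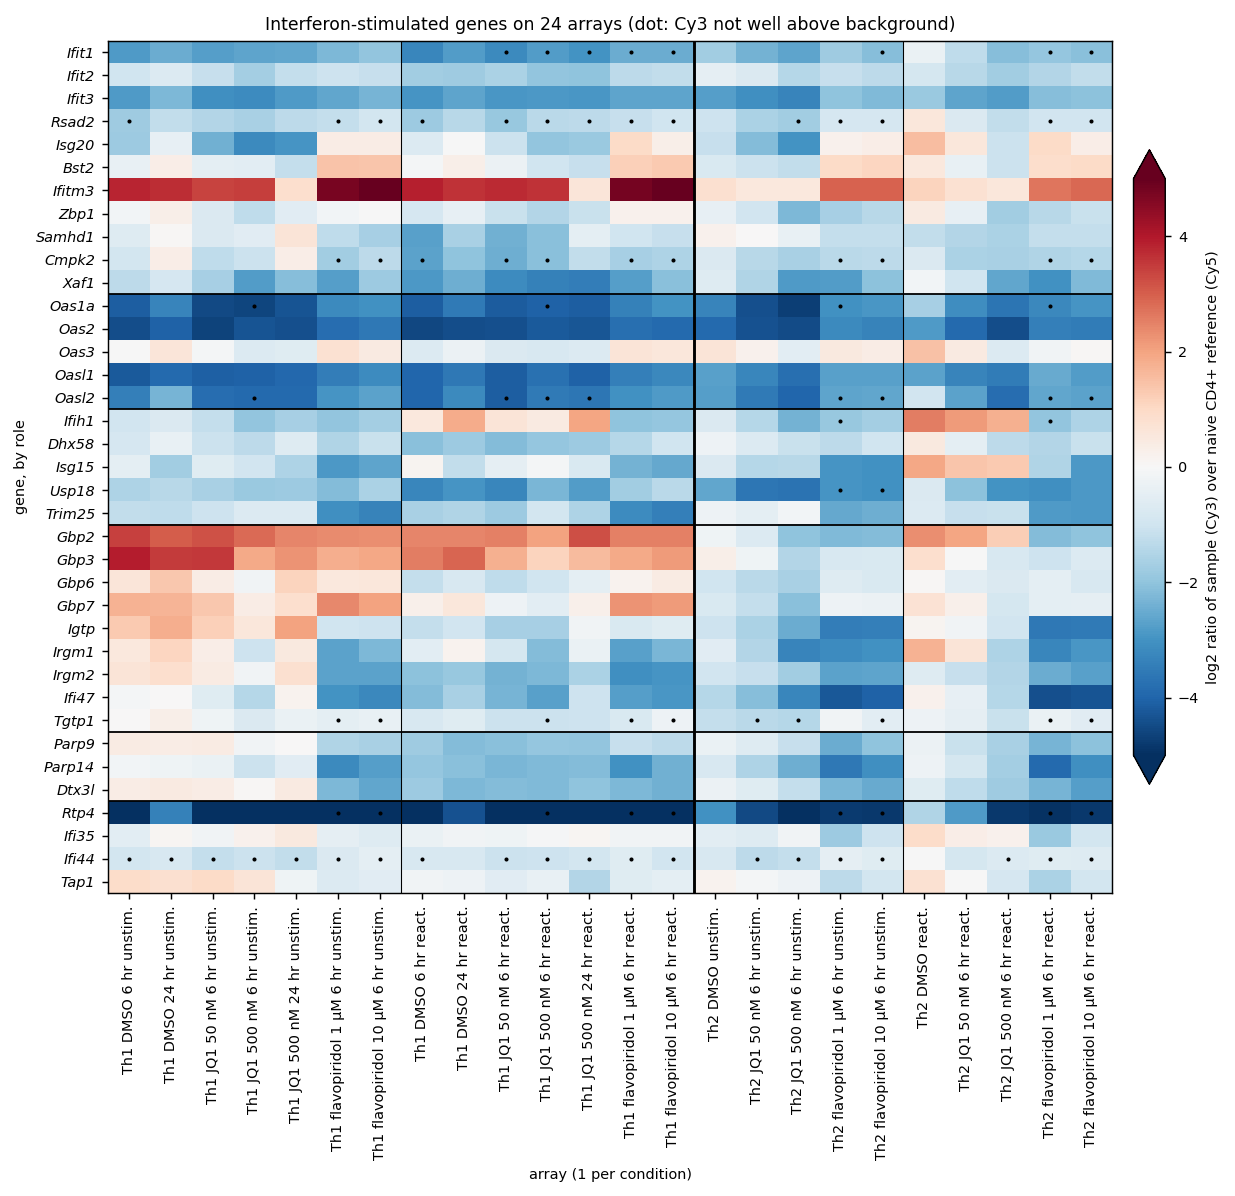
Level of each of the 37 genes (rows, by role) on each of the 24 arrays (columns, Th1 left and Th2 right of the thick line), as log2 ratio over naive cells. Colours are clipped at 5 on either side, dots mark probes not well above background in Cy3, and the Rtp4 row runs down to -6.24 while the Ifitm3 row reaches 5.13.

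Reactivation was first compared within each cell type, over the 3 pairs of arrays with DMSO, 50 nM JQ1 and 500 nM JQ1. Both cell types were fitted together, over 12 arrays and 6 pairs, with a shared error. In Th1 cells 3 of 37 genes rose and 21 fell, or 8.11% and 56.8%, where 21.2% of all 12906 genes tested rose and 29.3% fell. In Th2 cells 24 rose and 4 fell, or 64.9% and 10.8%, against 26.6% and 34.6% of all genes. The median change was -0.49 in Th1 cells and 0.67 in Th2 cells, beside -0.05 and -0.06 over all genes. The difference between the changes, Th1 minus Th2, was called for 24 of 37 genes, all of them lower in Th1 cells, whereas 3.91% of all genes differed upwards and 3.94% downwards. Its median was -1.25 for these genes and 0.02 for all genes. In the DMSO pairs alone, 24 of 37 genes were lower after reactivation in both Th1 pairs, at 6 hr and 24 hr, and higher in the Th2 pair, as were 4.47% of all genes tested, and 0 showed the opposite, as did 5.21%. Some Th1 markers moved with the list in Th2 cells. Tbx21, the Th1 transcription factor, went from -0.02 to 4.64 with DMSO, from -0.05 to 3.34 with 50 nM JQ1 and from -0.05 to 0.94 with 500 nM JQ1. The chemokine receptor Cxcr3 went from -0.06 to 4.11, from -0.48 to 2.60 and from -0.89 to -0.40. Others did not: Il18r1 went from -2.74 to -3.73, from -3.37 to -4.23 and from -4.46 to -4.30. Il12rb2 went from -0.28 to -0.20 with DMSO. The mean of the 5 Th1 markers went from -0.49 to 2.20, from -0.78 to 1.46 and from -1.12 to 0.19 in these pairs. That of the 6 Th2 markers went from 1.78 to 4.13, from 1.31 to 3.76 and from 0.67 to 3.04. The part of these markers in the result was not tested. These comparisons take JQ1 arrays as pairs beside DMSO. With the Flavopiridol pairs added, 0 differences between cell types were called, as for 0% of all genes. In Th1 cells limma then called 0 of 37 changes, against 0.0153% of all genes upwards and 0.00763% downwards, and 6 genes rose and 1 fell in Th2 cells, against 7.16% and 16.1% of all genes.

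The 9 GTPases all fell in Th1 cells, with a median change of -1.32, and 8 of 9 rose in Th2 cells, with a median of 1.37. The difference was called for all 9, from -3.89 to -1.39. Igtp, an immunity-related GTPase, was at 1.30, 1.19 and 0.57 in unstimulated Th1 cells with DMSO, 50 nM JQ1 and 500 nM JQ1 for 6 hr, and at -1.19, -1.66 and -1.65 after reactivation. In Th2 cells it was at -1.02, -1.57 and -2.50 before and at 0.15, -0.16 and -0.97 after. Unstimulated and reactivated arrays did not overlap in either cell type, although in Th2 cells the reactivated array with 500 nM JQ1 lay just above the unstimulated array with DMSO. The changes were -2.52 ± 0.13 in Th1 cells (adjusted p = 9.45e-06) and 1.37 ± 0.13 in Th2 cells (adjusted p = 5.34e-05), and they differed by -3.89 ± 0.19 (adjusted p = 0.000178).

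Gbp2, a guanylate-binding protein, was at 3.42, 3.20 and 2.82 in the same unstimulated Th1 arrays and at 2.45, 2.52 and 2.03 after reactivation. In Th2 cells it was at -0.20, -0.67 and -2.03 before and at 2.34, 1.98 and 1.24 after. Reactivated Th2 cells thus came near the level of reactivated Th1 cells. The changes were -0.81 ± 0.14 in Th1 cells and 2.82 ± 0.14 in Th2 cells, with a difference of -3.64 ± 0.20 (adjusted p = 0.000253). With 500 nM JQ1 for 24 hr, however, the Th1 level of Gbp2 was 2.45 unstimulated and 3.21 reactivated, the reverse of the other Th1 pairs without Flavopiridol.

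Irgm1, which regulates the other immunity-related GTPases, was at 0.51, 0.32 and -1.05 in unstimulated Th1 cells and at -0.53, -0.88 and -2.18 after reactivation, against -0.57, -1.48 and -3.29 before and 1.73, 0.65 and -1.54 after in Th2 cells. Each pair moved in the direction of its cell type, and 500 nM JQ1 gave the lowest levels throughout. The difference was -3.18 ± 0.16 (adjusted p = 0.000178). Ifi47, another immunity-related GTPase, differed by -3.45 ± 0.20 (adjusted p = 0.000253), and with DMSO went from -0.08 to -2.16 in Th1 cells and from -1.44 to 0.22 in Th2 cells. Irgm2, a close relative of Irgm1, fell by 2.53 in Th1 cells (adjusted p = 1.19e-05) and had a change of 0.20 in Th2 cells that was not called (adjusted p = 0.27). Gbp3, Gbp6, Gbp7 and Tgtp1 fell by 0.67 to 1.42 in Th1 cells and rose by 0.47 to 1.38 in Th2 cells, with Tgtp1 well above background on 2 of 3 reactivated Th1 and 1 of 3 unstimulated Th2 arrays. The plot of GTPase levels shows the crossing slopes with DMSO and JQ1 and the flat lines with Flavopiridol.

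**Figure D2:**
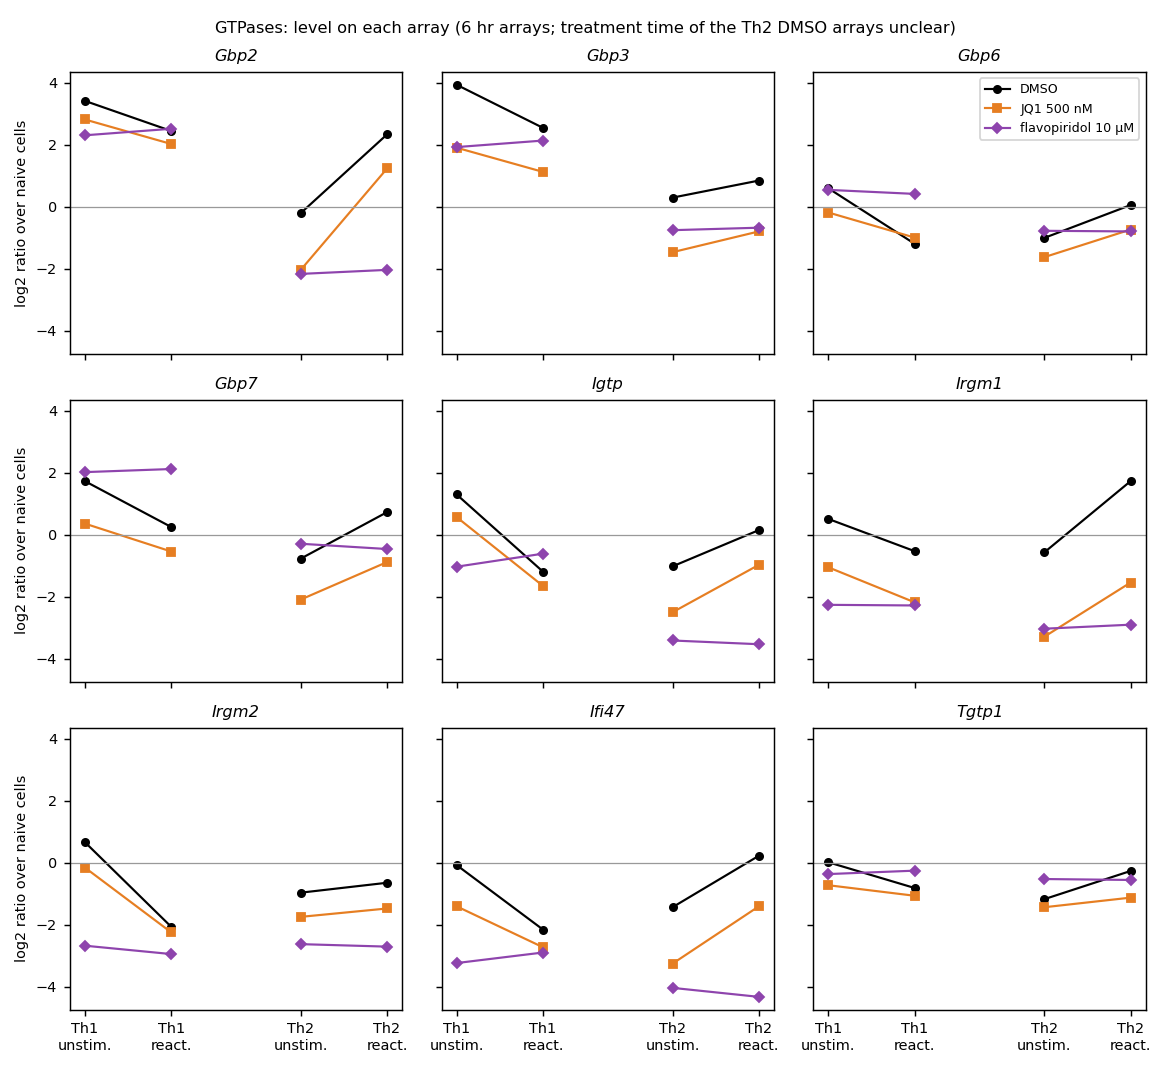
Level of each of the 9 GTPases (log2 ratio over naive cells) in unstimulated and reactivated Th1 and Th2 cells with DMSO, 500 nM JQ1 or 10 µM Flavopiridol, 1 array per point. Lines slope down in Th1 and mostly up in Th2 cells with DMSO and JQ1, as for Igtp from 1.30 to -1.19 in Th1 and from -1.02 to 0.15 in Th2 with DMSO, and are nearly flat with Flavopiridol.

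Promoters are shown here because the GTPases moved together on reactivation. Promoter sequences, 250 bases before to 50 bases after the start, were read from RefSeq (GRCm38.p6) for 29 of the genes and searched for the ISRE core TTTCNNTTTC and the GAS core TTCNNNGAA on both strands. The ISRE core was in 16 of 29 promoters, or 55.2%, and in 3.99% of 27025 genes of the table. The GAS core was in 11 of 29, or 37.9%, and in 9.55% of all. Among GTPases 7 of 8 promoters held the ISRE core and 4 the GAS core. Stretches of 150 bases that end next to the start are given 5′ to 3′ on the gene's strand, with motif matches in capitals:
Igtp, chr11:58199406-58199555, plus strand: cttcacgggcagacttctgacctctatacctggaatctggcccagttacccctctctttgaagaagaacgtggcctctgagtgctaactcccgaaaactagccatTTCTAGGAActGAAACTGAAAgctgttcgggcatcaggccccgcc
Irgm2, chr11:58214827-58214976, plus strand: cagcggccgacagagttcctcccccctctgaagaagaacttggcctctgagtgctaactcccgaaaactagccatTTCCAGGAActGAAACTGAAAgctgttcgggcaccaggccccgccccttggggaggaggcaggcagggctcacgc
Tgtp1, chr11:48992247-48992396, minus strand: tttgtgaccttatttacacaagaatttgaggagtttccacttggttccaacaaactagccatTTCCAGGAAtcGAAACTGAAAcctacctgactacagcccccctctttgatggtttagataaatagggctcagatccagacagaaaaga
Gbp2, chr3:142620513-142620662, plus strand: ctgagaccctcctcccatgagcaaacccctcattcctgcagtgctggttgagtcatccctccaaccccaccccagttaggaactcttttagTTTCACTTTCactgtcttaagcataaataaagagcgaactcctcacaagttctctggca
Irgm1, chr11:48871421-48871570, minus strand: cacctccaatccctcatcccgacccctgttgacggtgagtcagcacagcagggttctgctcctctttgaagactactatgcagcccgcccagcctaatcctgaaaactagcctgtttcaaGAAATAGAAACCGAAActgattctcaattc
Isg15, chr4:156200819-156200968, minus strand: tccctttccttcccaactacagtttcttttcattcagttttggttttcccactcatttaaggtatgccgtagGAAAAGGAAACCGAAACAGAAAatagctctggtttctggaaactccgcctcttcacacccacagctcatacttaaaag
Ifi47, chr11:49076437-49076586, plus strand: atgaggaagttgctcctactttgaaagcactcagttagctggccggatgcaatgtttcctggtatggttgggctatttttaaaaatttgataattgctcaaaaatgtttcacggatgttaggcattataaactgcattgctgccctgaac

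In Igtp, Irgm2 and Tgtp1 the GAS core began 11 bases before the ISRE core, and Igtp and Irgm2 shared an unbroken run of 61 identical bases that began downstream of both motifs and ran past the start. Gbp2 held an ISRE core and no GAS core. Irgm1 and Isg15 held 2 and 3 ISRE cores that overlapped each other. The Ifi47 promoter held neither, although its difference between Th1 and Th2 cells was -3.45. A match is a description of the sequence, and binding of a factor was not measured.

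Parp9, Parp14 and Dtx3l encode ADP-ribosyltransferases and the ubiquitin ligase that partners Parp9. All 3 fell in Th1 cells. Dtx3l levels were 0.39, 0.39 and 0.04 unstimulated and -1.80, -2.15 and -2.21 reactivated, with no overlap and a change of -2.32 ± 0.11 (adjusted p = 7.41e-06). Parp9 fell by 2.14 ± 0.15 (adjusted p = 3.04e-05) and Parp14 by 1.64 ± 0.15 (adjusted p = 8.34e-05). A second Dtx3l probe, above background on 19 arrays, gave -1.38 in Th1 cells. In Th2 cells Dtx3l fell by 0.51 (adjusted p = 0.00401) by its brightest probe, but the second probe gave -0.02. Parp9 had a change of -0.31 (adjusted p = 0.117) and Parp14 rose by 0.67 (adjusted p = 0.00456). The difference between cell types was called for all 3, at -1.81 to -2.32.

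Among the 5 sensors and ISG15-system genes, Ifih1 and Isg15 rose in both cell types. Ifih1, the cytosolic sensor of long double-stranded RNA known as MDA5, was at -0.96, -1.19 and -1.98 in unstimulated Th1 cells and at 0.52, 0.64 and 0.46 after reactivation, and went from -0.71, -1.41 and -2.35 to 2.55, 2.14 and 1.78 in Th2 cells. Every reactivated array lay above every unstimulated array. The change was 1.92 ± 0.21 in Th1 cells and 3.65 ± 0.21 in Th2 cells (adjusted p = 0.000195 and 4.27e-06), and the Th1 change was smaller by 1.73 (adjusted p = 0.0159). Isg15, the ubiquitin-like modifier, rose by 0.55 ± 0.13 in Th1 cells and by 2.72 ± 0.13 in Th2 cells, where it was at -0.72, -1.44 and -1.37 before and at 1.94, 1.38 and 1.31 after. Usp18, which removes Isg15 and restrains interferon signalling, fell by 1.26 in Th1 cells and rose by 1.37 in Th2 cells, a difference of -2.63 ± 0.40 (adjusted p = 0.0112). Trim25, the ubiquitin ligase of the RIG-I pathway, fell in both, by 0.47 and 0.71. Dhx58, the helicase LGP2, fell by 0.98 in Th1 cells and had a change of 0.27 in Th2 cells (adjusted p = 0.245).

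Of the 11 antiviral effectors, 1 rose and 5 fell in Th1 cells, and 6 rose and 2 fell in Th2 cells. Isg20, an exonuclease that degrades RNA, rose by 1.22 ± 0.16 and by 2.44 ± 0.16. Its DMSO levels went from -1.81 to -0.70 in Th1 cells and from -1.15 to 1.53 in Th2 cells. Samhd1, which hydrolyses deoxynucleotides, fell in both, by 1.76 ± 0.12 and 1.38 ± 0.12 (adjusted p = 2.33e-05 and 3.09e-05). A second Samhd1 probe, also above background on all 24 arrays, gave smaller mean changes of -0.85 and -0.88. Cmpk2, a nucleotide kinase, was not well above background on any of the 3 reactivated Th1 arrays, so that its Th1 level was at least 2.14-fold lower after reactivation (adjusted p = 0.000195). Ifit2, one of the RNA-binding Ifit proteins, fell in both cell types, by 0.49 and 0.48. Xaf1, a pro-apoptotic factor, fell by 1.21 in Th1 cells and had a change of 0.42 in Th2 cells (adjusted p = 0.0813), a difference of -1.63 ± 0.26 (adjusted p = 0.0132). Zbp1, a sensor of Z-form nucleic acids, fell by 0.43 and rose by 0.65. Ifit1, Ifit3, Rsad2, the enzyme viperin, and Bst2, the tether that holds budding virus, rose in Th2 cells by 0.61 (Ifit3) to 1.01 (Ifit1) and were not called in Th1 cells. There Ifit3 and Bst2 had changes of 0.10 and 0.00, while Ifit1 was well above background on 1 of the 3 reactivated Th1 arrays and Rsad2 on 0, so that the sizes of their Th1 changes cannot be read. Of these 4 genes the difference itself was called for Ifit1 (adjusted p = 0.0139).

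In the oligoadenylate synthetase family limma called 0 of 5 genes in Th1 cells, where 1 of them, Oas3, had an unadjusted p of 0.0381, and 3 of 5 rose in Th2 cells. Oas1a with DMSO was at -4.12 and -4.13 in unstimulated and reactivated Th1 cells and at -3.29 and -1.67 in Th2 cells. Its Th2 change was 1.33 ± 0.14 (adjusted p = 7.72e-05) and its difference between cell types -1.04 ± 0.19 (adjusted p = 0.021). In Th1 cells with 500 nM JQ1 Oas1a was not well above background in either state, so that the size of this difference is uncertain. Among the remaining genes, Tap1, a peptide transporter of antigen presentation, fell by 1.19 ± 0.21 in Th1 cells (adjusted p = 0.00188). Rtp4 rose by 1.46 ± 0.20 in Th2 cells and differed between cell types by -1.86 ± 0.29 (adjusted p = 0.0112). It was not well above background in reactivated Th1 cells with 500 nM JQ1, so that the size of its difference is uncertain. Each difference and its pairs are set out in the plot of reactivation changes.

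**Figure D3:**
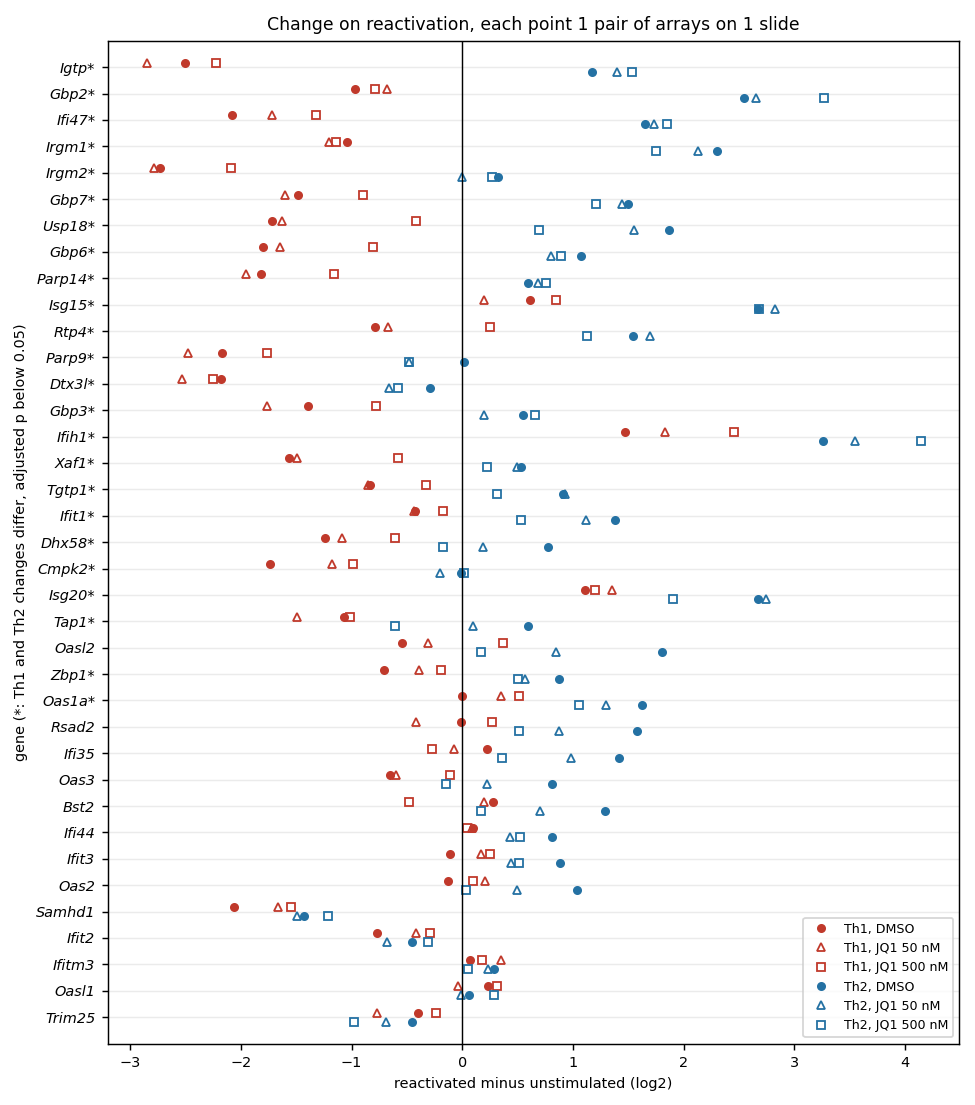
Change on reactivation (log2, reactivated minus unstimulated) of the 37 genes in Th1 (red) and Th2 (blue) cells with DMSO, 50 nM JQ1 and 500 nM JQ1, each point 1 pair of arrays, ordered by the difference between cell types. Stars mark the 24 genes whose Th1 and Th2 changes differed, with Igtp (-3.89) and Gbp2 (-3.64) at the top.

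Genes of the interferon pathway outside the list were examined beside it: 35 were measured and 34 tested. In Th1 cells 4 rose and 23 fell on reactivation, where 21.2% of all genes rose and 29.3% fell. In Th2 cells 10 rose and 12 fell, shares close to the 26.6% and 34.6% of all genes. The difference was called for 13, all lower in Th1 cells, against 3.94% of all genes. Ifng, which encodes interferon gamma, was at 7.15 and 8.59 in unstimulated and reactivated Th1 cells with DMSO for 6 hr and rose by 1.76 over the 3 Th1 pairs (adjusted p = 0.000304). In Th2 cells it was at 0.65, 0.29 and 0.05 before and at 6.20, 5.70 and 4.79 after, a called rise (adjusted p = 1.14e-06) whose size is uncertain, since it was well above background on 1 of the 3 unstimulated Th2 arrays, that with DMSO. All 4 receptor chains fell in both cell types: the changes in Th1 and Th2 cells were -2.57 and -2.19 for Ifngr1, -1.23 and -1.23 for Ifngr2, -1.35 and -2.20 for Ifnar1, and -1.32 and -1.53 for Ifnar2. Irf1, a transcription factor induced by interferon gamma, fell by 1.67 in Th1 cells and rose by 1.15 in Th2 cells, a difference of -2.83 (adjusted p = 0.004). Irf9 fell by 1.18 in Th1 cells and had a change of 0.04 in Th2 cells (adjusted p = 0.81), a difference of -1.22 (adjusted p = 0.0133).

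Averaged over the 3 DMSO pairs of both cell types, 3 of 37 genes rose and 7 fell, or 8.11% and 18.9%, against 21.9% and 29% of 12526 genes tested. Ifih1 rose by 2.43 ± 0.32 (adjusted p = 0.00141), Isg20 by 1.39 and Isg15 by 1.26. Samhd1, Dtx3l and Irgm2 fell by 1.72 each, Cmpk2, detected on 2 of the 3 reactivated arrays, by 1.37, Ifit2 by 0.77 and Trim25 by 0.36. Irgm2 was lower in 2 of 3 pairs, and in the Th2 pair it was at -0.97 before and -0.65 after. Without the Th2 pair, 3 of 35 genes were called higher and 23 lower, against 19.3% and 26.2% of all genes. With spike-in centring 7 of 37 rose and 6 fell, against 29.5% and 16.8% of all genes. With loess and a spike-in shift 6 rose and 3 fell, against 34.3% and 15.9%.

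Most of the list was lower with JQ1, but the call rests in large part on Th2 arrays that lay on another slide than their DMSO controls. At 500 nM against DMSO, over unstimulated and reactivated Th1 and Th2 cells, 28 of 37 genes fell and 0 rose, or 75.7%, against 29.9% of 12906 genes that fell and 17.7% that rose. The median change was -0.71, beside -0.07 over all genes. All 9 GTPases fell, with a median of -0.99, as did all 3 of Parp9, Parp14 and Dtx3l, 3 of 5 oligoadenylate synthetases, 7 of 11 effectors, 3 of 5 sensors and ISG15-system genes and 3 of 4 others. With 500 nM JQ1 Tgtp1 was not well above background on the reactivated Th1 and unstimulated Th2 arrays. Nor were Oas1a and Oasl2 on either Th1 array at 6 hr, so that the sizes of these changes are uncertain. The second Dtx3l probe gave a mean difference of -0.16, beside -0.71. Spike-in centring, done without loess, moved the median of all genes to -0.54 and that of the list to -1.29. The list then lay 0.75 below all genes, as with median centring without loess, beside 0.64 before. With loess kept and a spike-in shift the medians were -0.65 and -1.28, and the list lay 0.64 below. With the arrays of slide 1 only, which held JQ1 and DMSO pairs of Th1 cells at 6 hr, 8 of 35 genes fell and 1 rose, against 15.1% and 8.51% of all genes, and the median was -0.37. The means of the B cell, T cell, Th1 and Th2 marker lists were lower with 500 nM JQ1 as well. The B cell mean was 1.16 and 0.98 with DMSO in unstimulated and reactivated Th1 cells and 2.51 and 2.44 in Th2 cells. With the drug it was 0.14, 0.13, 1.57 and 1.74. The Th1 marker mean went from 4.03, 4.18, -0.49 and 2.2 to 2.56, 2.97, -1.12 and 0.19 in the same order. The part of these markers in the result was not tested. When the 4 contexts were not taken as blocks, 1 gene was called, lower, against 4.17% of all genes lower and 2.8% higher.

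Irgm1 fell most. With DMSO it was at 0.51 and -0.53 in unstimulated and reactivated Th1 cells and at -0.57 and 1.73 in Th2 cells, and with 500 nM JQ1 at -1.05, -2.18, -3.29 and -1.54. Each of the 4 pairs was lower, by 2.30 ± 0.23 on average (adjusted p = 3.09e-05). Isg20 went from -1.81, -0.70, -1.15 and 1.53 to -3.17, -1.98, -2.98 and -1.08, a change of -1.77 ± 0.19 (adjusted p = 3.77e-05). Gbp3 fell by 1.71 ± 0.14 (adjusted p = 7.87e-06), with DMSO levels of 3.94, 2.55, 0.30 and 0.85 and JQ1 levels of 1.91, 1.13, -1.46 and -0.79. For both genes every JQ1 array lay below its DMSO array. Xaf1 fell by 1.66, Zbp1 by 1.44, Ifi47 by 1.34, Gbp7 by 1.27, Parp14 by 1.07, Oas3 by 1.03 and Ifih1 by 0.87. Rtp4 fell by 1.73 (adjusted p = 0.0108) and was well above background on 3 of the 4 JQ1 arrays. With the arrays of slide 1 only it was not called. Ifi44 was called lower (adjusted p = 0.00987), but it was well above background on 2 of the 4 DMSO arrays, those of Th2 cells, and on 0 of the 4 JQ1 arrays, so that no size is given. Samhd1, Trim25 and Ifi35 had changes of -0.05, 0.23 and 0.18 that were not called.

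At 50 nM, limma called 0 of 37 genes, where 0.256% of all genes rose and 0.0852% fell. The fitted change was below 0 for all 37, with a median of -0.38 beside -0.01 over all genes, and 17 of them, or 45.9%, had an unadjusted p below 0.05, against 13.2% of all genes. The median difference from DMSO was -0.21 and -0.18 in unstimulated and reactivated Th1 cells and -0.48 and -0.78 in Th2 cells at 50 nM, and -0.52, -0.19, -0.92 and -1.45 at 500 nM. In reactivated Th2 cells all 37 genes were below DMSO at both doses. The median difference of all expressed genes there was -0.02 at 50 nM and -0.08 at 500 nM. The drug-treated Th2 arrays lay on another slide than the Th2 DMSO arrays, so that drug and slide cannot be told apart there. No difference of the JQ1 change between Th1 and Th2 cells was called, for 0 of 37 genes and for 0% of all genes in either direction, and the smallest adjusted p among the 37 was 0.226. At an unadjusted p below 0.05, 24 of 37 genes, or 64.9%, had a higher JQ1 change in Th1 than in Th2 cells, against 7.02% of all genes in either direction.

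Within slides, JQ1 and DMSO could be compared in Th1 cells at 500 nM, in 4 pairs of 6 hr and 24 hr. There 14 of 36 genes fell and 3 rose, or 38.9% and 8.33%, against 21.1% and 13.1% of 12532 genes tested. Isg20 fell by 1.76 ± 0.20 (adjusted p = 0.000792), Gbp3 by 1.5 ± 0.15 (adjusted p = 0.000481), Irgm1 by 1.07 ± 0.21 (adjusted p = 0.00777) and Xaf1 by 1.06 ± 0.16 (adjusted p = 0.00259). Rtp4, detected on 3 of the 4 JQ1 arrays, fell by 0.83 and Oas3 by 0.60. Of the 9 GTPases 4 fell, and Igtp and Gbp2, at -0.05 and -0.21, were not called (adjusted p = 0.886 and 0.495). Samhd1 rose by 0.61, Trim25 by 0.46 and Ifi35 by 0.43, of which Trim25 and Ifi35 turned to -0.05 and -0.07 with spike-in centring.

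Ifitm3 stood apart. In Th1 cells it was at 3.81 and 3.88 with DMSO for 6 hr, at 3.71 and 3.60 with DMSO for 24 hr, and at 3.45 and 3.63 with 500 nM JQ1 for 6 hr, unstimulated and reactivated. With 500 nM JQ1 for 24 hr it was at 0.85 and 0.62, near the Th2 levels of 0.81 and 1.1 with DMSO. The change over the 4 pairs was -1.61 ± 0.47 (adjusted p = 0.0329), with pair differences of -0.36 and -0.25 at 6 hr and -2.85 and -2.98 at 24 hr. On the same arrays the Cy3 signal alone was 11.90 and 11.58 with DMSO for 24 hr and 8.17 and 8.08 with JQ1 for 24 hr (log2). Its naive-cell channel ranged over 2.23 log2 units across the 24 arrays, whereas that of the 36 other genes ranged over 0.17 to 0.76. The effect of this on its ratio was not tested.

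**Figure D4:**
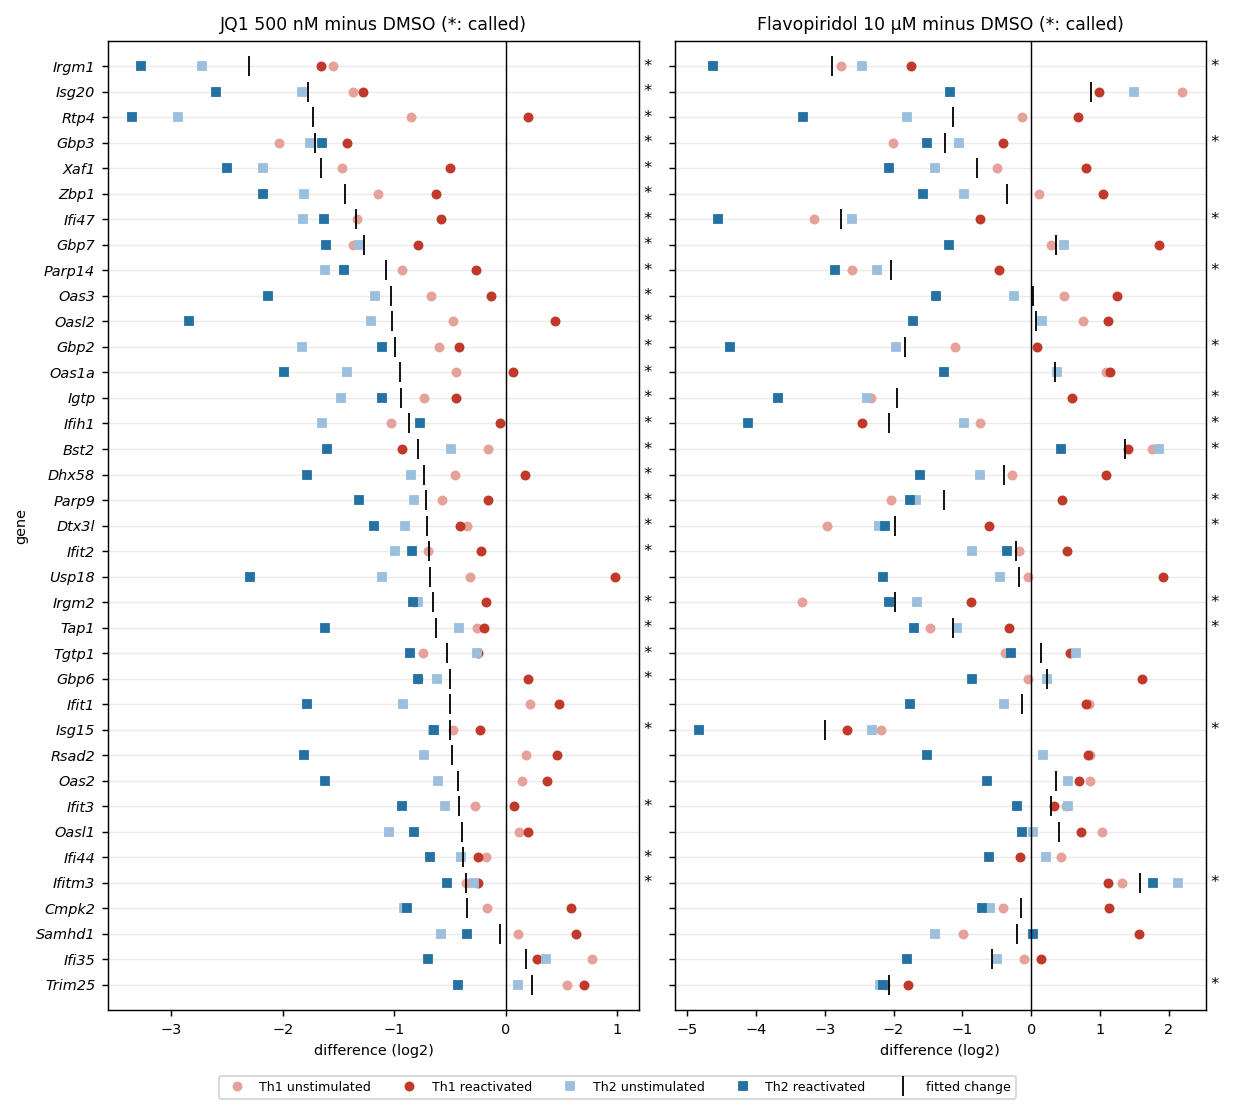
Difference from DMSO (log2) of each gene with 500 nM JQ1 (left) and 10 µM Flavopiridol (right), 1 point per pair of arrays, with the fitted change as a bar and called genes starred; both panels use the same DMSO arrays. With JQ1 28 of 37 genes were called, all lower, led by Irgm1 (-2.30), and with Flavopiridol 13 were called lower and 2 higher, with reactivated Th2 cells (dark squares) mostly lowest.

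Flavopiridol at 10 µM, compared with the same DMSO arrays, lowered 13 of 35 genes tested and raised 2, or 37.1% and 5.71%, against 33.5% and 15.4% of 12425 genes. The share that fell was thus close to that of all genes. The median change was -0.35, beside -0.22 for all genes. All Flavopiridol arrays lay on other slides than their controls, and drug and slide cannot be told apart. Spike-in centring, done without loess, moved the median of all genes to -1.65 and that of the list to -2.17. Then 32 of 35 genes were called lower, as were 90.8% of all genes. With loess kept and a spike-in shift the medians were -1.27 and -1.4. Then 22 of 35 genes were called lower, as were 76.1% of all genes. The B cell marker means were lower with the drug too, at -0.14 and -0.17 in Th1 cells and 1.32 and 1.41 in Th2 cells, and their part was not tested. Median differences from DMSO were -0.28 and 0.64 in unstimulated and reactivated Th1 cells, and -0.74 and -1.62 in Th2 cells. At 1 µM 14 of 35 fell and 2 rose, against 35.5% and 16.2% of all genes, with a median of -0.51.

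Of the 9 GTPases 6 fell, with a median of -1.84 over all 9, while Gbp6 and Gbp7 had changes of 0.23 and 0.36 that were not called. Tgtp1 was not called either, and as it was well above background on all 4 DMSO arrays and on 0 of the 4 Flavopiridol arrays, no size is given for it. Irgm1 levels with 10 µM Flavopiridol were -2.26 and -2.28 in unstimulated and reactivated Th1 cells and -3.03 and -2.90 in Th2 cells, all below the lowest DMSO level of -0.57, a change of -2.90 ± 0.43 (adjusted p = 0.000727). Ifi47 fell by 2.76 ± 0.56 (adjusted p = 0.00352). Gbp2 fell by 1.84 ± 0.66 (adjusted p = 0.0447), with levels of 2.31 and 2.52 in Th1 cells and -2.16 and -2.03 in Th2 cells. With DMSO it was at 3.42 and 2.45 in Th1 cells and at -0.20 and 2.34 in Th2 cells, so that the reactivated Th1 pair was nearly level.

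Isg15 fell by 3.0 ± 0.38 (adjusted p = 0.000323), from -0.47, 0.14, -0.72 and 1.94 with DMSO to -2.65, -2.54, -3.04 and -2.88. Trim25 fell by 2.07 ± 0.14 (adjusted p = 2.27e-05), from -1.23, -1.63, -0.25 and -0.70 to -3.35, -3.42, -2.45 and -2.86. The arrays with and without the drug did not overlap for either gene. Ifih1 also fell by 2.07 ± 0.55, Parp14 by 2.04 ± 0.38, Dtx3l by 1.98 ± 0.34 and Tap1 by 1.14 ± 0.26, and the second Dtx3l probe gave a mean difference of -0.25. Ifitm3 and Bst2 rose by 1.58 ± 0.20 and 1.36 ± 0.24 (adjusted p = 0.000372 and 0.00193), changes that turned to -0.15 and -0.32 with spike-in centring. None of the 5 oligoadenylate synthetases was called, with changes of 0.02 to 0.41, and the smallest adjusted p among them was 0.108. In the pathway list, Irf1 fell by 4.30 (adjusted p = 0.000144) and Irf9 by 2.10 (adjusted p = 6.91e-05).

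With Flavopiridol, reactivated and unstimulated arrays were nearly alike. The median difference over detected genes of the list was 0.02 in Th1 and -0.13 in Th2 cells at 1 µM and 0.06 and -0.03 at 10 µM, and 1 gene, Isg15 in Th2 cells at 1 µM (1.45), differed by over 1 log2 unit. Among all expressed genes, 0.624% to 4.63% were over 2-fold higher in these 4 pairs and 0.0914% to 0.379% over 2-fold lower. The Flavopiridol change differed between reactivated and unstimulated cells for 1 of 35 genes, Ifih1, whose change was -2.42 ± 0.60 relative to that of unstimulated cells (adjusted p = 0.035), against 6.93% of all genes that differed downwards and 8.9% upwards. Between Th1 and Th2 cells it differed for 0 of 35 genes by limma, against 0% upwards and 0.0161% downwards of all genes. The smallest adjusted p was 0.203, and 12 genes, or 34.3%, had an unadjusted p below 0.05, 11 of them with a higher value in Th1 cells, against 12.9% of all genes.

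For JQ1 the change differed between states for 2 of 37 genes, 1 in each direction, against 4.5% of all genes upwards and 5.63% downwards. Ifih1 fell less in reactivated cells, by 0.93 ± 0.26 (adjusted p = 0.0492), a difference that turned to -0.20 with spike-in centring, where the median of all genes moved from -0.01 to -1.04. Bst2 fell more in reactivated cells, at -0.94 ± 0.23 (adjusted p = 0.0336). With DMSO Bst2 was at -0.37 and -0.08 in unstimulated and reactivated Th1 cells and at -0.76 and 0.53 in Th2 cells, and with 500 nM JQ1 at -0.53, -1.01, -1.25 and -1.07.

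Over 10 matched pairs of Th1 and Th2 arrays, 5 of 37 genes were higher and 7 lower in Th1 cells, or 13.5% and 18.9%, close to the 17% and 18.5% of all 13109 genes. The 2 DMSO pairs shared a slide, with the Th2 time unclear, but in the 8 drug-treated pairs Th1 and Th2 arrays lay on different slides, so that cell type and slide cannot be told apart there. In DMSO pairs only, 2 of 35 genes were called higher and 2 lower, against 1.41% and 0.92% of all genes. Of the GTPases 4 of 9 were higher in Th1 cells and 0 lower by limma. Gbp2 was higher by 3.20 ± 0.52 (adjusted p = 0.000642), Gbp3 by 2.72 ± 0.21 (adjusted p = 2.02e-06), Gbp7 by 1.72 and Igtp by 1.52. These averages join unlike pairs. Igtp was higher in Th1 cells in 7 of 10 pairs, and after reactivation it was lower there with DMSO, 50 nM JQ1 and 500 nM JQ1, by differences of -1.34, -1.49 and -0.68. Gbp7 was higher in 8 of 10 pairs, with differences of -0.48 and -0.49 in the reactivated pairs with DMSO and 50 nM JQ1. In reactivated pairs only, the GTPase median was -0.08, beside 0.69 over all pairs, and Gbp2 was no longer called, whereas Gbp3 was. Ifitm3 was higher by 2.58 ± 0.13 in all 10 pairs (adjusted p = 8e-08). Oasl1 and Trim25 were lower in Th1 cells, at -0.75 and -0.58. Rtp4 was also called lower (adjusted p = 0.0139), but it was well above background on 5 of 10 Th1 and 6 of 10 Th2 arrays and on none with Flavopiridol. With DMSO, where it was detected on all arrays, its differences were -2.16 unstimulated and -4.49 reactivated. With spike-in centring 0 of the 37 genes were called lower in Th1 cells, against 3.25% of all genes. With DMSO, 11 of 37 genes were over 2-fold higher in unstimulated Th1 cells and 3 over 2-fold lower, with a median of -0.02, where 3.88% and 2.94% of all expressed genes were so. After reactivation 2 were higher and 27 lower, with a median of -1.45, against 2.67% and 2.17% of all. The B cell marker means given above were higher on Th2 arrays, and their part in these differences was not tested.

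Between Th1 arrays at 24 hr and 6 hr, 7 of 36 genes were higher at 24 hr and 1 lower, or 19.4% and 2.78%, against 2.38% and 2.91% of 12532 genes. Rtp4 was higher by 1.23 ± 0.21 (adjusted p = 0.0259), Irgm1 by 1.16, Samhd1 by 1.15, Cmpk2 by 1.04 and Igtp by 0.92. Of the 4 arrays at 6 hr, Rtp4 was well above background on 3 and Cmpk2 on 2. Isg15 was lower at -0.97 ± 0.15 (adjusted p = 0.0221), with DMSO levels of -0.47 and 0.14 at 6 hr and -1.75 and -1.24 at 24 hr. Each time lay on a slide of its own, so that time and slide cannot be told apart. The 8 calls fell to 1 with spike-in centring, to 0 with loess and a spike-in shift, and to 0 without the unstimulated Th1 array with 500 nM JQ1 for 6 hr. Of all genes 0.0718% were called higher and 0.0958% lower with spike-in centring, and 0.0239% and 0.0319% with the spike-in shift.

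Second probes differed in size from the brightest probe for several genes. Irgm1 gave -1.04 and 1.79 on reactivation in Th1 and Th2 cells with its second probe, beside -1.12 and 2.06, and Isg20 gave 1.29 and 2.60 beside 1.22 and 2.44. Zbp1 differed in size, at -1.39 in Th1 cells beside -0.43. The second Xaf1 probe, above background on 6 arrays, gave -0.12 and 0.02 beside -1.21 and 0.42. The second Ifih1 probe, above background on 5 arrays, gave 0.26 and 0.94 on reactivation beside 1.92 and 3.65, and -0.43 beside -2.07 with Flavopiridol. With 10 µM Flavopiridol the second probes gave smaller falls for Isg15, at a mean difference of -1.52 beside -3.0, and for Irgm1, at -1.48 beside -2.90, and were above background on 17 and 21 arrays. The second Samhd1 probe gave -1.41 beside -0.20. The array holds named probes for 8 of 9 near copies that were looked up, such as Tgtp2 and Gbp10, and how far signal from such copies reached the probes of Tgtp1, Ifit3, Oas1a and the Gbp genes was not tested.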

How the data were processed

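The authors scanned 24 two-colour arrays with Agilent Feature Extraction 10.7.1.1, and per the file headers each spot has Cy3 and Cy5 intensity values, from which median signals were taken. The deposited log10 ratio of the software and the deposited table of processed values, on a log2 scale, served as alternatives. Background was corrected by normexp with an offset of 50 and ratios were normalised by loess within each array (R 4.3.3, limma 3.58.1). Controls and outlier spots were left out, and the brightest probe stood for a gene. Genes were named through the probes' RefSeq accessions. A comparison tested the genes whose Cy3 signal cleared background on 3 or more of its arrays, with lmFit, eBayes and Benjamini-Hochberg adjustment, which was tested on simulated data. Members and lists were chosen with earlier results of these data known. In each comparison the text names up to 5 called members that rose and 5 that fell most, of the same direction in every pair, and 1 from each role group. Other members are named by role with their values, after these were seen. Reactivation within and between cell types, and JQ1 within slides, were comparisons chosen after seeing the data. Processing alternatives and arrays left out are given in the closing section.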

Additional observations from a re-analysis of the deposited data

Results flagged for a closer look

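Effects of the same contrast differed between groups for the following genes. The change on reactivation differed between Th1 and Th2 cells, by limma, for 24 of 37 genes, among them Igtp (-3.89), Gbp2 (-3.64), Ifi47 (-3.45), Irgm1 (-3.18), Irgm2 (-2.73), Usp18 (-2.63), Parp14 (-2.32), Rtp4 (-1.86), Xaf1 (-1.63) and Oas1a (-1.04), each given as the Th1 minus the Th2 change on the log2 scale. The differences of Rtp4 and Oas1a rest in part on Th1 arrays where they were not well above background. The Flavopiridol change differed between reactivated and unstimulated cells for Ifih1 (-2.42), and the JQ1 change for Ifih1 (0.93) and Bst2 (-0.94).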

How the results depend on the processing

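Each count below is the number of genes of the list called. Median centring and spike-in centring took the place of loess. Over the 3 DMSO pairs, 3 genes were called higher and 7 lower on reactivation, with shares of all genes in brackets (21.9% and 29%). Spike-in centring gave 7 and 6 (29.5% and 16.8%), and loess with a spike-in shift 6 and 3 (34.3% and 15.9%). Cy3 alone gave 2 and 4 (22.2% and 28.9%), and the software's log ratio 1 and 3 (20.1% and 27%). No filter on dim probes gave 1 and 4 (13.4% and 18%), and no block 1 and 4 (18.3% and 23.9%). Without the 24 hr Th1 pair it was 3 and 2 (16.5% and 21.3%), and without the Th2 pair 3 and 23 (19.3% and 26.2%). Within Th1 cells 24 were called and 0 with Flavopiridol arrays added. Within Th2 cells 28 were called, and 17 with spike-in centring, 13 with loess and a spike-in shift and 7 with Flavopiridol arrays added. Of all genes 11.3% rose and 12.6% fell with spike-in centring, beside 26.6% and 34.6% in the main fit. With loess and a spike-in shift 9.89% rose and 8.28% fell, and with Flavopiridol arrays added 7.16% and 16.1%. The difference between cell types was called for 24, and for 0 with Flavopiridol arrays added. For Flavopiridol 15 became 28 with median centring and 32 with spike-in centring, where 66.7% and 90.8% of all genes were called lower. Spike-in centring turned Ifitm3 to -0.15 and Bst2 to -0.32. For JQ1 28 became 1 with no block, 0 at the lower dose and 9 on slide 1 only. Within slides 17 became 11 with loess and a spike-in shift, where 0.351% of all genes were called higher and 12% lower. With no filter 11 were called, against 7.91% and 12.5% of all genes. Ifi35 and Trim25 turned to -0.07 and -0.05 with spike-in centring and to -0.06 and -0.04 with loess and a spike-in shift.

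The difference of the Flavopiridol change between states was called for 1 gene. It was called for 0 with median centring, 0 with spike-in centring, 0 with loess and a spike-in shift, 0 from the software's log ratio, 0 with no background correction, 0 with no filter, 2 with the mean of all probes and 5 with slide as a random block. For JQ1 2 became 30 with spike-in centring and 30 with loess and a spike-in shift, all lower, where 79.5% and 85.8% of all genes were called lower, 0 from Cy3 alone, 0 from the software's log ratio, 0 from the deposited table, and 1 each with no background correction, the mean of all probes and no filter, while Ifih1 turned to -0.20 with spike-in centring and -0.32 with loess and a spike-in shift. The Flavopiridol change differed between cell types for 0 genes, and for 9 with spike-in centring and 9 with loess and a spike-in shift, all higher in Th1 cells, as were 11.6% and 16.4% of all genes. Between Th1 and Th2 cells 12 became 5 with median centring, 4 with spike-in centring, 5 with loess and a spike-in shift, 4 in DMSO pairs only, 19 in unstimulated and 4 in reactivated pairs only. Between 24 hr and 6 hr 8 became 1 with spike-in centring, 0 with loess and a spike-in shift, 1 from the software's log ratio and 3 with no filter. Of all genes 0.0718% were called higher and 0.0958% lower with spike-in centring, and 0.0239% and 0.0319% with the spike-in shift. The software's log ratio gave 0.0479% and 0.00798%, and no filter 0.669% and 0.844%.

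Leaving out each array in turn gave 4 (without the unstimulated Th1 DMSO array of 6 hr) to 26 (without the unstimulated Th2 DMSO array) for reactivation, 20 to 26 within Th1 cells, 22 to 29 within Th2 cells and 12 (without the unstimulated Th1 array with 50 nM JQ1) to 28 for their difference. It gave 11 to 20 for Flavopiridol, 23 to 31 for JQ1, 7 (without the unstimulated Th1 DMSO array of 24 hr) to 14 within slides, 0 to 18 (without the reactivated Th1 DMSO array of 6 hr) for Flavopiridol by state, 0 to 3 for JQ1 by state, 0 to 0 and 0 to 1 for Flavopiridol and JQ1 by cell type, 9 to 16 for Th1 against Th2 and 0 (without the unstimulated Th1 array with 500 nM JQ1 for 6 hr) to 7 between times. A slide block could not be fitted for the drugs by cell type, for reactivation, between times or within slides. Of the alternatives other than single arrays left out, 750 kept the call of a named gene, 167 lost it and 8 turned its direction. The turns named above came with spike-in centring or a spike-in shift, under which the median of all genes moved as well. The cause of these shifts was not tested. With 1 array per condition, precision rests on pairs from different conditions, and dim probes such as Ifi44 carry little signal over background.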
